A study of Mus musculus with 6 samples.

Results

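The genes described here encode 10 receptors through which hormones, nerves and nutrients act on exocrine and islet cells of the pancreas. They were chosen by name, out of the 37224 genes of the count table, and all 10 were found in it. They comprise the cholecystokinin receptors *Cckar* and *Cckbr*, the muscarinic acetylcholine receptor *Chrm3*, the secretin receptor *Sctr*, the vasoactive intestinal peptide (VIP) receptor *Vipr1*, the incretin receptors *Glp1r* and *Gipr*, the glucagon receptor *Gcgr*, the fatty acid receptor *Ffar1* and the somatostatin receptor *Sstr2*. Their RNA was measured in whole pancreata of wild-type (wt) C57/Bl6J mouse embryos without transgene or treatment, collected 13.5 or 15.5 days post coitum (dpc). Each stage had 3 samples. Pancreata from up to 3 embryos were pooled for a sample, so differences between embryos within a pool were not seen. The whole organ was sequenced, and more or fewer cells of a type therefore cannot be told apart from more or less RNA per cell. The samples held 10546028 to 16389237 counts. Values below are counts normalised to a common library size, and p-values are from edgeR's quasi-likelihood test, adjusted by the Benjamini-Hochberg method over all 15578 genes tested.

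In the mature pancreas, cholecystokinin and acetylcholine act on receptors coupled to the G protein Gq, which raises calcium in acinar cells and releases digestive enzymes. Secretin and VIP act on receptors coupled to Gs, which raises cyclic AMP and drives fluid and bicarbonate secretion from ducts. The incretins GLP-1 and GIP, together with glucagon, also signal through Gs and enhance insulin release from β-cells, long-chain fatty acids do so through FFAR1, and somatostatin, acting on Gi-coupled receptors such as SSTR2, restrains secretion. The comparison of 13.5 with 15.5 dpc asks which of these receptors were already transcribed in the embryonic organ and how their RNA differed across the secondary transition, the period when acinar and endocrine cells differentiate in large numbers.

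*Cckar* and *Vipr1* were higher at 15.5 dpc, each nearly 3-fold, and no receptor was called lower. Of the 9 receptors tested, 2 were called higher and 0 lower at an adjusted p of 0.05 or less, whereas 22.3% of all genes tested were called, 11.6% higher and 10.7% lower. DESeq2 called 2 receptors higher and 0 lower, beside 4279 of all 15578 genes, with 55.5% of those calls higher. At an unadjusted p under 0.05, edgeR gave 3 receptors higher and 0 lower. The share of all genes at that level was not counted. The median log2 fold change of the 9 receptors was 0.50, beside -0.01 for all genes tested. The remaining receptor, *Glp1r*, had too few counts to pass the filter. All samples of 1 stage lay above those of the other for 5 of the 10 receptors, with *Cckar*, *Vipr1*, *Gcgr* and *Sstr2* above and *Cckbr* below at 15.5 dpc. Such separation was seen in 46.4% of all genes tested, 22.8% above and 23.6% below.

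**Figure D1:**
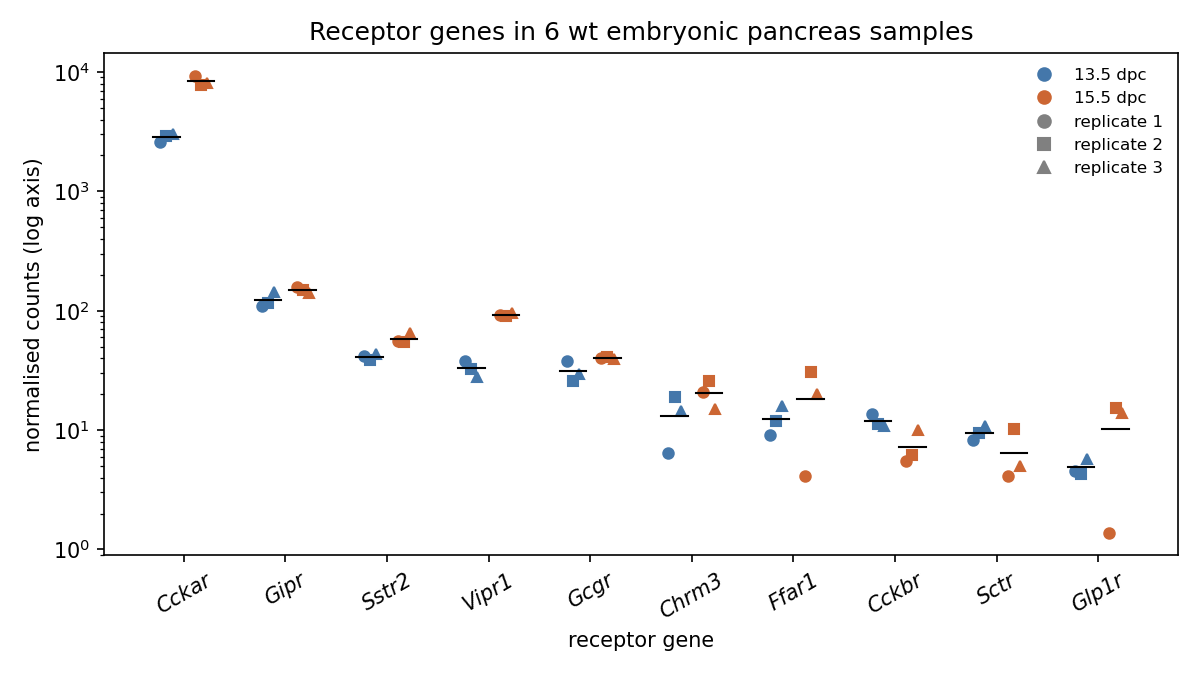
Normalised counts (log axis) of the 10 receptor genes in each of the 6 samples, with 13.5 dpc in blue, 15.5 dpc in orange, symbols for replicate numbers and black lines for stage means. *Cckar* is at 2589.6 or more in every sample, the highest value of any other receptor is 159, for *Gipr*, and *Glp1r*, *Ffar1*, *Sctr* and *Cckbr* are each lowest in 15.5 dpc replicate 1.

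*Cckar* (chr5:53698485-53707704, minus strand, mm10 as all gene positions here) encodes the cholecystokinin receptor found on rodent acinar cells. Its 13.5 dpc samples had normalised counts of 2589.6, 2897 and 3009 in replicates 1, 2 and 3, with a mean of 2832 ± 217 (SD, n = 3). At 15.5 dpc they were 9290.3, 7736 and 8035, a mean of 8354 ± 825 (SD, n = 3). All 15.5 dpc samples were thus far above all 13.5 dpc samples. The log2 fold change was 1.56 (SE 0.11, 95% interval 1.30 to 1.82), with an adjusted p of 0.000472 by edgeR.

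*Cckar* also took most of the reads counted on the 10 receptors. Without correction for exon length, it held 90.6%, 91.5% and 90.9% of the counts of all 10 receptors in the 13.5 dpc samples. In the 15.5 dpc samples its share was 96.1%, 94.8% and 95.2%. The exact binomial intervals of the shares ran from 89.5% to 92.4% at the earlier stage and from 94.3% to 96.5% at the later, covering counting error only. The share was thus higher in every 15.5 dpc sample.

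The *Cckar* difference moved with the listed acinar markers, which were chosen with earlier results of these data known. All 6 of these genes were called higher at the later stage (median log2 fold change 2.08). Their summed normalised counts were 42966 to 50296 at 13.5 dpc and 133490 to 242620 at 15.5 dpc, and the means of these sums differed 4.17-fold. Per 1000 acinar marker counts, *Cckar* had 60.3, 62.6 and 59.8 counts at 13.5 dpc. At 15.5 dpc it had 38.3, 58.0 and 39.0, so that relative to these markers every 15.5 dpc sample lay below every 13.5 dpc sample. Replicate 2 of 15.5 dpc, with the lowest acinar sum of its stage (133490), had the ratio closest to the earlier stage. The part of the acinar markers in the *Cckar* result was not tested.

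**Figure D2:**
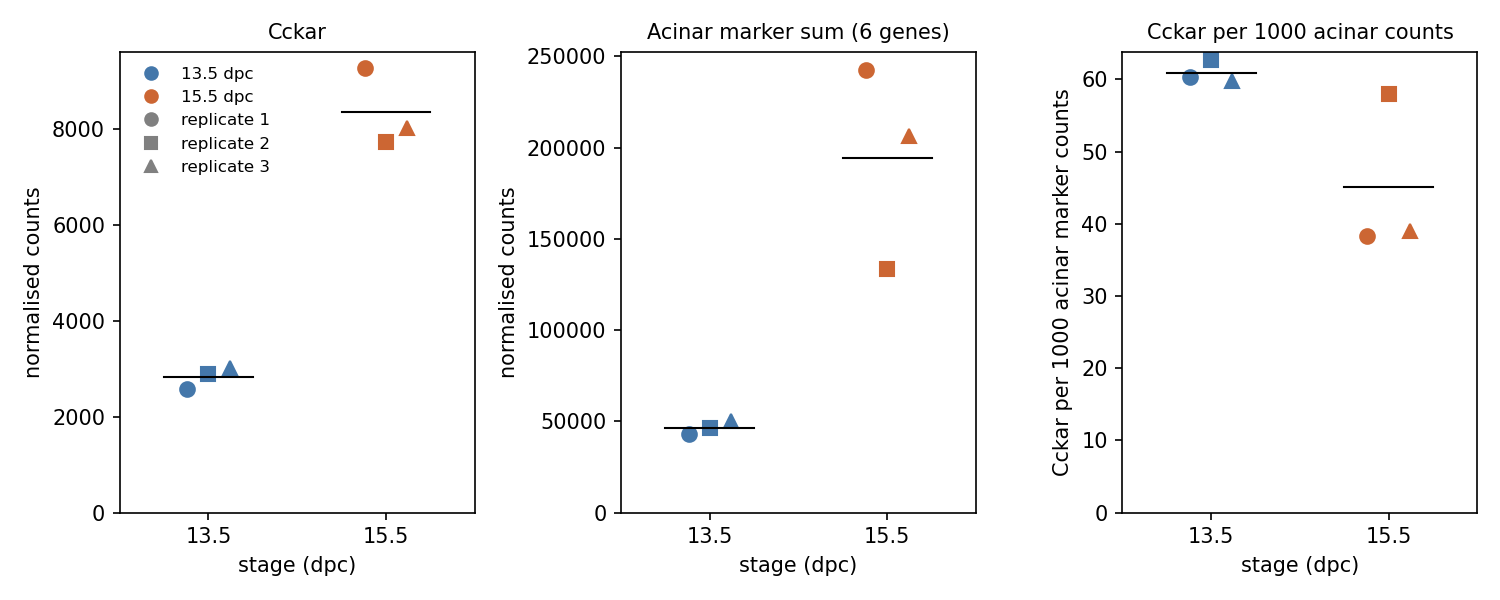
Normalised counts of *Cckar*, summed normalised counts of 6 acinar marker genes, and *Cckar* counts per 1000 acinar marker counts in each sample, by stage in dpc, with lines for means. *Cckar* and the acinar sum are higher in every 15.5 dpc sample, whereas the ratio is 59.8 to 62.6 at 13.5 dpc and 38.3 to 58.0 at 15.5 dpc.

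*Cckbr* (chr7:105425820-105436338, plus strand), which encodes the receptor that binds gastrin as well as cholecystokinin, was scarce. The 13.5 dpc samples had 15, 13 and 15 counts and the 15.5 dpc samples 4, 6 and 8, or normalised 13.7, 11.1 and 10.8 against 5.54, 6.14 and 10.1. The stages did not overlap, but the highest 15.5 dpc sample lay close to the lowest 13.5 dpc sample. The log2 fold change was -0.70 (SE 0.33, 95% interval -1.47 to 0.07, adjusted p = 0.165 by edgeR), so neither a lower level nor an equal level was shown. *Cckbr* made up 0.357% to 0.525% of the counts of both cholecystokinin receptors at 13.5 dpc and 0.0596% to 0.125% at 15.5 dpc.

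*Chrm3* (chr13:9877229-9878998, minus strand) encodes a muscarinic receptor through which vagal acetylcholine stimulates acinar cells. At 13.5 dpc 7, 22 and 20 reads were counted on it, and at 15.5 dpc 15, 25 and 12. The normalised values were 6.38, 18.9 and 14.4 against 20.8, 25.6 and 15.1, and the stages overlapped. This gave a log2 fold change of 0.63 (SE 0.40, 95% interval -0.30 to 1.56, adjusted p = 0.27 by edgeR), and the interval allows anything from a slight decrease to almost the *Cckar* difference. The value was 0.32 without 13.5 dpc replicate 1 and 0.94 without 13.5 dpc replicate 2, neither called. Only 28.3% of the exon bases that the GENCODE M21 annotation gives for *Chrm3* were counted in the deposited table.

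*Sctr* (chr1:120006980-120063528, plus strand) encodes the receptor for the duct-acting hormone secretin. It had 9, 11 and 15 counts in the 13.5 dpc samples and 3, 10 and 4 in those of 15.5 dpc. After normalisation these were 8.20, 9.43 and 10.8 against 4.15, 10.2 and 5.04, with replicate 2 of 15.5 dpc inside the earlier range. Its log2 fold change was -0.49 (SE 0.39, 95% interval -1.41 to 0.43, adjusted p = 0.382 by edgeR). It was -1.02 (adjusted p = 0.105) without 15.5 dpc replicate 2 and -0.27 (adjusted p = 0.677) without 15.5 dpc replicate 1, and no setting tried called it. The summed duct markers had a ratio of means of 0.769, from 15419 to 16051 at 13.5 dpc to 11619 to 12974 at 15.5 dpc. Most of this sum was *Spp1*, and the list moved both ways, with *Spp1* and *Sox9* called lower and *Krt19* called higher (log2 fold change 1.01, adjusted p = 0.0217 by edgeR). The part of these genes in the *Sctr* values was not tested.

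*Vipr1* (chr9:121642716-121672954, plus strand), which encodes a receptor shared by VIP and the related peptide PACAP, showed the other called difference. In the 13.5 dpc samples it had 42, 38 and 39 counts, and in the 15.5 dpc samples 66, 89 and 76. The normalised values were 38.3, 32.6 and 28.0 against 91.3, 91.0 and 95.7, with means of 33.0 ± 5.14 and 92.7 ± 2.62 (SD, n = 3 each). The stages were well separated, and the 15.5 dpc samples lay close together. *Vipr1* rose by a log2 fold change of 1.50 (SE 0.17, 95% interval 1.11 to 1.89, adjusted p = 0.00154 by edgeR). *Vipr1* did not reach the 100 normalised counts that the study's methods require, and under those thresholds *Cckar* was the 1 receptor called, where 10.4% of protein-coding genes were. Per 1000 acinar marker counts, *Vipr1* gave 0.891, 0.704 and 0.557 at 13.5 dpc and 0.376, 0.682 and 0.464 at 15.5 dpc, with overlap between stages. Per 1000 endocrine marker counts it gave 1.70, 1.33 and 1.25 against 1.98, 3.47 and 2.89, with every 15.5 dpc sample above. The summed smooth muscle markers were also higher (750 to 855 against 1380.5 to 1867), and the part of either marker list was not tested.

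The sequence in front of the start site was looked up in RefSeq (GRCm38.p6) for the 10 receptors, and 7 had an entry of 250 bases. The windows of *Vipr1* and *Cckbr* are printed because these receptors had the highest and lowest log2 fold changes among those with a window, and that of *Sstr2* because it alone held a full cyclic AMP response element. Each is given 5′ to 3′ on the gene's own strand, which is the plus strand for all of them, in lower case with the E-box motif CANNTG and the element TGACGTCA in capitals.
*Vipr1*, chr9:121642466-121642715: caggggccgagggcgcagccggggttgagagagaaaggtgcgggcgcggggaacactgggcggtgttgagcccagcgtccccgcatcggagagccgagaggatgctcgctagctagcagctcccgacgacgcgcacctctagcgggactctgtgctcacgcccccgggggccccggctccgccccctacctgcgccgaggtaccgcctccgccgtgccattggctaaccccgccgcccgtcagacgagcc
*Cckbr*, chr7:105425481-105425730: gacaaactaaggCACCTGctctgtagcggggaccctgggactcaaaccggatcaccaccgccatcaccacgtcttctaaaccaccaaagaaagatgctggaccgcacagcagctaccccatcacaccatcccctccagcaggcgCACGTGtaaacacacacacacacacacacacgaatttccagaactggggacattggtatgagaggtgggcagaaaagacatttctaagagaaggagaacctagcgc
*Sstr2*, chr11:113619077-113619326: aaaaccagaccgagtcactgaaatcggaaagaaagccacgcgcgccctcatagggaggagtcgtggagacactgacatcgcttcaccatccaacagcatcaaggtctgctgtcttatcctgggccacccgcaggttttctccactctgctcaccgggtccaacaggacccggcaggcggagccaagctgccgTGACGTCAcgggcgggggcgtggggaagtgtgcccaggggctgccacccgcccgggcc
The *Vipr1* window was rich in G and C (72.8%), held 30 CpG dinucleotides against a median of 6 over 32851 windows of that length, and held no E-box. The *Cckbr* window held 9 CpG dinucleotides and 2 E-boxes, which begin 238 and 106 bases before the start. The *Sstr2* window held 18 CpG dinucleotides, and its TGACGTCA begins 58 bases before the start. E-boxes, the letters to which basic helix-loop-helix factors such as PTF1A and NEUROD1 bind, were present in 3 of the 7 receptor windows (*Cckbr*, *Ffar1* and *Glp1r*) and in 66.2% of all windows. TGACGTCA, searched for after the receptor windows had been read, was present in 1 of 7 and in 1.55% of all, and TATAAA was present in none of the 7 and in 12.4% of all. Both strands were searched, CANNTG and TGACGTCA each read alike on either strand, and the motifs share no base here. A match is a description of the letters only.

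*Gipr* (chr7:19157125-19166127, minus strand) encodes the receptor for the incretin GIP. Normalised, it had 109, 117 and 142 counts in the 13.5 dpc samples and 159, 150.3 and 139.8 in those of 15.5 dpc, with means of 123 ± 17.3 and 149.8 ± 9.70 (SD, n = 3 each). The lowest 15.5 dpc sample lay below the highest 13.5 dpc sample. A log2 fold change of 0.28 was found (SE 0.15, 95% interval -0.06 to 0.62, adjusted p = 0.189 by edgeR). The interval excludes a change of the size seen for *Cckar*. Per 1000 endocrine marker counts *Gipr* gave 4.87, 4.77 and 6.34 at 13.5 dpc and 3.45, 5.73 and 4.22 at 15.5 dpc.

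*Glp1r* (chr17:30901867-30936510, plus strand), which encodes the receptor for the incretin GLP-1, was near the limit of detection. The 13.5 dpc samples had 5, 5 and 8 counts and the 15.5 dpc samples 1, 15 and 11, or normalised 4.56, 4.29 and 5.75 against 1.38, 15.3 and 13.9. The single count in 15.5 dpc replicate 1 has an exact Poisson interval of 0.0253 to 5.57, below the interval of 8.40 to 24.7 for the 15 counts in replicate 2 before allowing for depth. Without the filter on low counts, the log2 fold change was 1.08 (SE 0.60, adjusted p = 0.278 by edgeR). Without 15.5 dpc replicate 1, *Glp1r* passed the filter and was called higher, with a log2 fold change of 1.56 (adjusted p = 0.0151). It also passed the filter without each 13.5 dpc sample and was not called there, with log2 fold changes of 1.01 to 1.24 and adjusted p-values of 0.35 to 0.402 by edgeR.

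*Ffar1* (chr7:30860568-30861470, minus strand), which encodes a receptor of β-cells for long-chain fatty acids, was likewise lowest in 15.5 dpc replicate 1. The 13.5 dpc samples had 10, 14 and 22 counts and the 15.5 dpc samples 3, 30 and 16, or normalised 9.11, 12 and 15.8 against 4.15, 30.7 and 20.1. The stages overlapped because 15.5 dpc replicate 1 lay below every other sample. Over all samples the log2 fold change was 0.61 (SE 0.55, 95% interval -0.67 to 1.90, adjusted p = 0.429 by edgeR). It was 1.04 (adjusted p = 0.0471) without 15.5 dpc replicate 1 and 0.0085 (adjusted p = 0.99) without 15.5 dpc replicate 2, so the value rested on which of these libraries was kept. In replicate 1, where *Glp1r* and *Ffar1* were lowest, the summed endocrine markers were highest, at 46175 against 26220 and 33159 in replicates 2 and 3. The hormone and granule genes of that list (*Ins1*, *Ins2*, *Gcg*, *Iapp* and *Chga*) carried the sum, whereas its transcription factor genes *Neurod1*, *Pax6* and *Isl1* were lowest in replicate 1 among the 15.5 dpc samples, *Neurod1* with 279.6 normalised counts against 362 and 319.8. The 15.5 dpc samples also differed from each other by gene length. Across genes, which are not independent replicates, the log2 difference of replicate 1 from replicates 2 and 3 had a Spearman correlation with exon length of -0.59 and -0.49, and that of replicate 2 from replicate 3 had one of 0.53, so longer genes tended to be lowest in replicate 1 and highest in replicate 2. *Ffar1* and *Glp1r* were counted on only 903 and 1480 bases. Removal of the trend from each library used these counted lengths, which for *Ffar1* are 21.6% of its exon bases in GENCODE M21. The log2 fold change of *Ffar1* then went to 0.38 (adjusted p = 0.674 by edgeR). The part of the trend in the *Ffar1* and *Glp1r* values was not tested.

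*Gcgr* (chr11:120530699-120538986, plus strand) encodes the glucagon receptor, which is best known from liver. The 13.5 dpc samples had 38.3, 25.7 and 29.5 normalised counts and the 15.5 dpc samples 40.1, 40.9 and 39.0. The stages were separated by less than 1 normalised count. The difference was 0.37 on the log2 scale (SE 0.20, 95% interval -0.11 to 0.84, adjusted p = 0.219 by edgeR).

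*Sstr2* (chr11:113619342-113626005, plus strand) encodes a somatostatin receptor that inhibits secretion and came closest to the threshold of those not called. Its 13.5 dpc samples had 41.9, 38.6 and 43.1 normalised counts and its 15.5 dpc samples 55.4, 54.2 and 65.5, with means of 41.2 ± 2.34 and 58.3 ± 6.21 (SD, n = 3 each). The stages did not overlap. For *Sstr2* the log2 fold change was 0.50 (SE 0.16, 95% interval 0.12 to 0.87) with an unadjusted p of 0.0165 and an adjusted p of 0.0637 by edgeR. Without 15.5 dpc replicate 2, *Sstr2* passed the threshold (log2 fold change 0.57, adjusted p = 0.0398 by edgeR), where 7620 of all 15862 genes tested were called. Without 15.5 dpc replicate 3, the *Sstr2* value was 0.41 (adjusted p = 0.205 by edgeR).

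**Figure D3:**
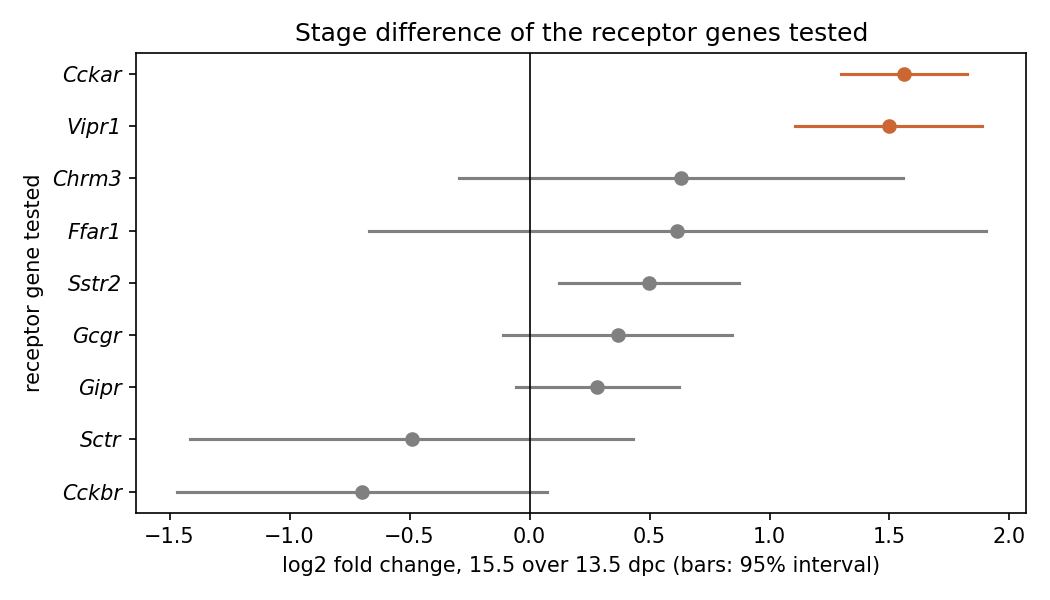
Log2 fold change of 15.5 over 13.5 dpc for the 9 receptors tested, with bars for the 95% interval and the called genes in orange. The intervals of *Cckar* (1.30 to 1.82) and *Vipr1* (1.11 to 1.89) lie highest, that of *Sstr2* starts at 0.12, and the remaining 6 include 0.

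Levels of different receptors were compared as RPKM, which divides by exon length and depth. At 13.5 dpc *Cckar* stood at 76.5 ± 5.87 RPKM (SD, n = 3), 14.1 times the level of *Gipr* at 5.42 ± 0.763, which in turn was 3.47 times that of *Sstr2* at 1.56 ± 0.0887. *Ffar1*, *Gcgr*, *Chrm3*, *Vipr1*, *Sctr* and *Cckbr* followed, from 1.08 down to 0.378 RPKM, and each of these overlapped the next over its samples. *Glp1r* was lowest, at 0.260 RPKM, and did not overlap *Cckbr*. At 15.5 dpc *Cckar* reached 226 ± 22.3 RPKM, 34.1 times the 6.61 ± 0.428 of *Gipr*, and *Vipr1* moved up from the seventh to the fifth place. *Sstr2* (2.21 RPKM) overlapped *Ffar1* (1.61), which overlapped *Vipr1* (1.32). *Vipr1* did not overlap *Gcgr* (1.21), nor *Gcgr* *Chrm3* (0.916), while *Chrm3*, *Glp1r*, *Sctr* and *Cckbr* again overlapped in turn. Among all genes tested, the RPKM of *Cckar* lay at percentile 95.4 at 13.5 dpc and 98.3 at 15.5 dpc, whereas that of *Gipr* lay at 42.0 and 47.7.

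The RPKM values depend on the exons that were counted. For *Vipr1*, *Gcgr*, *Sstr2* and *Sctr* the counted exon length was at least 95.3% of that in GENCODE M21. It was 86.8% for *Cckbr*, 79.5% for *Cckar* and 51.5% for *Gipr*, and 28.3%, 25.5% and 21.6% for *Chrm3*, *Glp1r* and *Ffar1*. Reads on exons outside the counted part would not be in the table, so the low counts of the last 3 receptors are of a shorter stretch of RNA. No exon of the 10 receptors overlapped an exon of another gene on either strand. The share of 50-base windows also found in transcripts of another gene was 0 for 8 receptors, 0.138% for *Glp1r* and 0.778% for *Ffar1*.

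**Figure D4:**
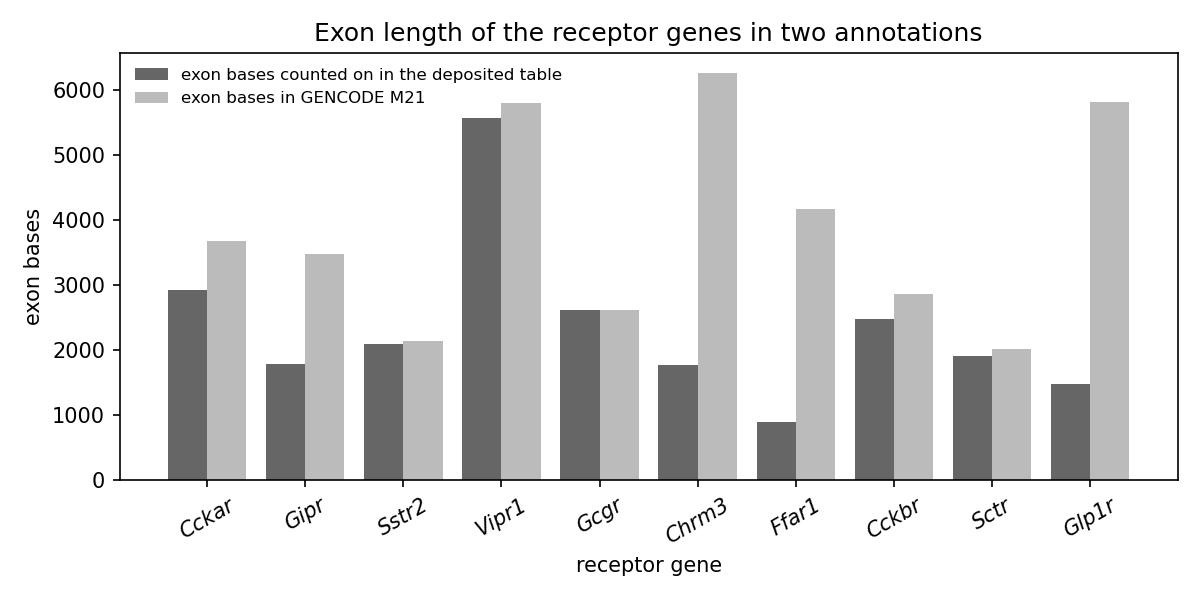
Exon bases of the 10 receptor genes that were counted in the deposited table (dark) and that GENCODE M21 gives (light). The bars are alike for *Gcgr*, *Sstr2*, *Vipr1* and *Sctr*, and the counted bar is 21.6% to 28.3% of the other for *Ffar1*, *Glp1r* and *Chrm3*.

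The genes whose samples followed those of a receptor most closely were found by the root mean square difference of log2 values centred on each gene's mean, over 6 samples and 10874 protein-coding genes. For *Cckar* they were *Mat1a*, which encodes an enzyme of S-adenosylmethionine synthesis (0.0399), the amino acid transporter gene *Slc38a3* (0.0502) and *Ttc9* (0.0664). For *Vipr1* they were *Fam81a* (0.117), *Fam13a* (0.136) and *Psd2* (0.139). For *Gipr* they were *Tnip1* (0.0416), *Dusp8* (0.0457) and *Mcam* (0.0601). The log2 fold changes of the genes closest to *Cckar* and *Vipr1* were 1.41 to 1.59, and those closest to *Gipr* 0.28 to 0.30. Because the genes were picked on the same 6 samples, fold changes near that of the receptor follow from the choice.

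Of 11 ligand genes listed, 10 were found and 7 were tested, with 1 called higher and 2 lower at 15.5 dpc. *Cck*, which encodes the ligand of both cholecystokinin receptors, fell while *Cckar* rose. From 229, 205 and 199.7 normalised counts at 13.5 dpc it went to 119, 83.9 and 84.4 at the later stage, without overlap. Its log2 fold change was -1.15 (SE 0.17, adjusted p = 0.00419 by edgeR). *Sct*, which encodes secretin, also fell, from 126, 99.5 and 115 to 66.4, 41.9 and 65.5 normalised counts. Its log2 fold change was -0.98 (SE 0.21, adjusted p = 0.0164 by edgeR), and it was no longer called without 13.5 dpc replicate 1 (adjusted p = 0.0773) or 13.5 dpc replicate 3 (adjusted p = 0.0708). The somatostatin gene *Sst* rose from 72.0, 60.9 and 95.5 to 1234.5, 614 and 599 normalised counts, with replicate 1 of 15.5 dpc highest. Its log2 fold change was 3.41 (SE 0.34, adjusted p = 0.00108 by edgeR), against 0.50 for its receptor *Sstr2*.

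The remaining ligand genes tested were not called over all samples with TMM factors. *Gcg*, which encodes glucagon and GLP-1, had 15868 ± 967 normalised counts at 13.5 dpc and 12725 ± 1954 at 15.5 dpc (SD, n = 3 each; log2 fold change -0.32, adjusted p = 0.114 by edgeR). Every 15.5 dpc sample of *Gcg* lay below every 13.5 dpc sample, and the gene was called lower without 15.5 dpc replicate 1 (-0.44, adjusted p = 0.00692), with total counts alone in place of TMM factors (-0.54, adjusted p = 0.00715) and with the trend of each library with gene length removed (-0.53, adjusted p = 0.000925). *Gast*, *Gip* and *Vip* had log2 fold changes of 0.03, 0.19 and 0.54, with adjusted p-values of 0.924, 0.614 and 0.267, and the signs for *Gast* and *Gip* changed with the normalisation. *Adcyap1*, *Cort* and *Chat*, the last of which makes acetylcholine, had at most 10 counts in any sample and were not tested.

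**Figure D5:**
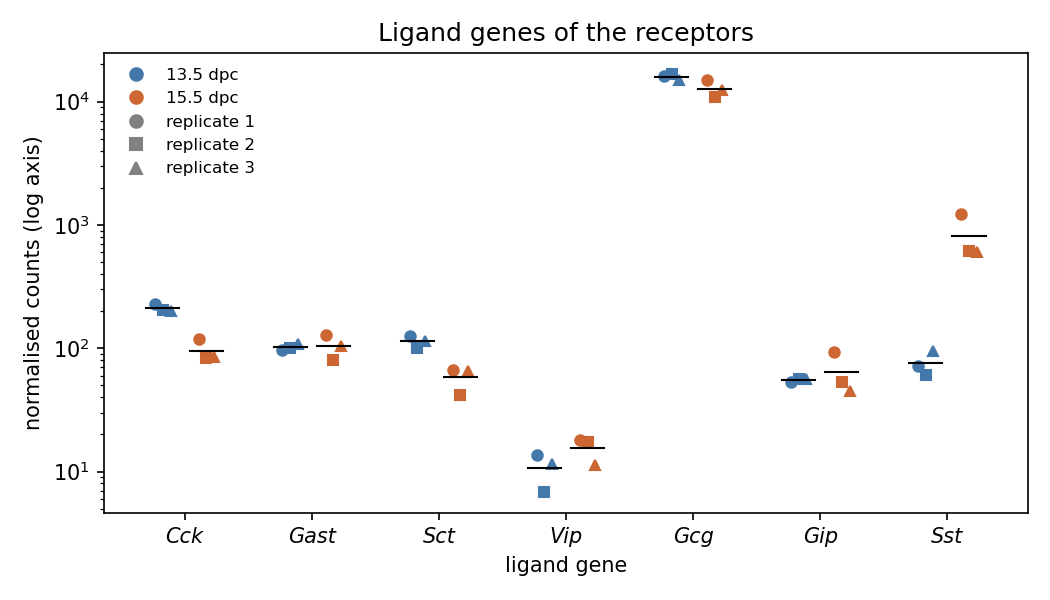
Normalised counts (log axis) of the 7 ligand genes tested, by stage and replicate, with lines for means. *Sst* is higher and *Cck* and *Sct* are lower in every 15.5 dpc sample, and *Gcg* is at 10966 or more in every sample of either stage.

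Related receptors that were not members gave 4 called higher and 4 lower among 21 tested of 28 listed, with a median log2 fold change of -0.13. The number called lower was 2 without any 1 of the 13.5 dpc samples, without 15.5 dpc replicate 3 and with a replicate block. The short-chain fatty acid receptors *Ffar3* and *Ffar2* and the muscarinic receptor *Chrm1* rose, with log2 fold changes of 1.54, 1.21 and 1.46 and adjusted p-values of 0.00477, 0.000976 and 0.00352 by edgeR. *Ffar2* reached 1995 ± 258 normalised counts at 15.5 dpc from 864 ± 17.5 at 13.5 dpc (SD, n = 3 each). Its level at 15.5 dpc was 62.3 RPKM, beside 1.61 RPKM for *Ffar1*. *Chrm1*, with 15, 21 and 20 counts in the 13.5 dpc samples and 29, 45 and 32 in those of 15.5 dpc, was like *Chrm3* a gene of few counts.

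Genes downstream of the receptors were read beside the 22.3% called among all genes tested. Of 18 genes of Gq and calcium signalling, 1 was called higher, the Gq-class α-subunit gene *Gna14* (log2 fold change 1.01, adjusted p = 0.0227), and 1 lower, the phospholipase gene *Plcb2* (-0.97, adjusted p = 0.0188). Of 24 genes of Gs and cyclic AMP signalling, edgeR called 0 higher, with 0 at an unadjusted p under 0.05 and 0 by DESeq2, and 3 lower. These were the adenylyl cyclase genes *Adcy8* (-2.01, adjusted p = 0.0124), *Adcy5* (-1.07, adjusted p = 0.0064) and *Adcy3* (-0.59, adjusted p = 0.0351). These counts moved with the processing. Without 15.5 dpc replicate 2, 3 Gq genes were called higher and 6 lower, and 8 Gs genes were called lower. In that setting 7620 of all 15862 genes tested were called. Total counts alone gave 7 Gs genes lower, beside 4085 calls among all 15578 genes, of which 27.7% were higher. Removal of the length trend gave 5 Gq genes higher, beside 5104 calls among all 15578 genes. The median log2 fold changes of the Gq and Gs lists were -0.12 and -0.20. Of 5 Gi genes tested, edgeR called 0, with 1 higher and 1 lower at an unadjusted p under 0.05 and 1 higher by DESeq2. Among 15 genes tested for receptor trafficking, desensitisation and hormone processing, the prohormone convertase genes *Pcsk1* (0.54, adjusted p = 0.0297) and *Pcsk2* (0.49, adjusted p = 0.011) rose and edgeR called 0 lower, with 2 at an unadjusted p under 0.05 and 0 by DESeq2. Without 15.5 dpc replicate 2, 4 of these were called lower, and with total counts alone 2 were. *Gna14*, *Plcb2*, *Adcy8*, *Adcy3*, *Pcsk1* and *Pcsk2* lost the call without 1 or more single libraries, with adjusted p-values of 0.0579 to 0.134 by edgeR, and *Adcy5* kept it in each case. The libraries concerned were those of 13.5 dpc and replicate 3 of 15.5 dpc. With total counts alone in place of TMM factors, *Pcsk1* and *Pcsk2* also lost it (adjusted p = 0.15 and 0.0933).

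The labelled tissue was checked against marker lists. Acinar, endocrine and duct markers were all present at both stages, and the endocrine sum was 22425 to 24458 at 13.5 dpc and 26220 to 46175 at 15.5 dpc, with *Ins1*, *Ins2* and *Iapp* called higher out of 8. Mesenchyme markers were abundant too, with a ratio of means of 0.875. Erythroid markers had a ratio of 0.0924. Stomach and intestine markers, among which *Tff1*, *Muc5ac* and *Atp4b* had 0 counts in all 6 samples, summed to 150.3 to 177 and then 383 to 645. *Vil1* (stage means of 146 and 336 normalised counts) and *Tff2* (5.68 and 153) made up most of this sum and were called higher. *Sox2* (9.41 and 5.77) and *Gkn1* (1.61 and 0) were lower in every 15.5 dpc sample and were not tested. *Cdx2* had at most 5 counts in any sample. What these lists contributed to the *Cck*, *Sct* and receptor values was not tested. With total counts alone in place of TMM factors the median of all genes moved to -0.22 and the share of calls that were higher from 52.1% to 27.7%, and *Cckar* and *Vipr1* stayed called.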

How the data were processed

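Poly(A) RNA of wt pancreata was sequenced from a single end with a strand-specific kit. Reads were aligned by the authors to mm10 (GSNAP), and those with a unique position were counted per Ensembl gene (featureCounts 1.4.6). The deposited values are these raw counts, with no normalisation, and the exon length of each gene, used here for RPKM. Whether counting used the strand is not given in the sources used here. The 6 columns of the table were all used. Reads without molecular identifiers are not independent molecules, so intervals of counts and shares cover counting error only.

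Symbols were matched by Ensembl identifier for 35449 of 37224 genes. The analysis used R 4.3.3, with edgeR 4.0.16 (filterByExpr, TMM factors of 0.847 to 1.08, quasi-likelihood test without covariates, Benjamini-Hochberg adjustment, threshold 0.05) and DESeq2 1.42.0 as an alternative. The genes tested held about 99.9% of the counts. Normalised counts refer to a library of the geometric mean effective size, and RPKM to each effective size. Standard errors were obtained from the log2 fold change and the F statistic, and the 95% interval uses 7.40 degrees of freedom, after moderation. Per the study's methods, its own thresholds are an adjusted p of at most 0.1, over 100 normalised counts at a stage and a ratio below 0.6 or above 1.6, for protein-coding genes. Figures were drawn with Python 3.11.15 and matplotlib 3.10.9.

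The members and lists were chosen with earlier results of these data known. Named genes were the 10 members, all ligand genes, the 3 called genes with the largest absolute log2 fold change in each further pathway list, and the 3 protein-coding genes (mean of at least 100 normalised counts) nearest to each member with a mean of at least 50, where log2 CPM had a prior count of 2. Marker genes stand outside this rule and were named after their values were seen. The steps were tested on simulated data. Alternatives were other normalisations and filters, DESeq2, the replicate number as a block, removal of a lowess trend with gene length (span 0.5), genes above 1% of the counts taken out, other thresholds, and each sample left out in turn.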

Additional observations from a re-analysis of the deposited data

How the results depend on the processing

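*Cckar* (log2 fold change 1.34 to 1.63) and *Vipr1* (1.29 to 1.64) were called higher under each of 15 alternatives. For the 9 receptors tested, 129 of 131 alternative values kept their direction and their side of the threshold, and *Ffar1* without 15.5 dpc replicate 1 and *Sstr2* without 15.5 dpc replicate 2 passed it. The number of receptors called higher was 2 to 4 with each sample left out in turn. *Glp1r* and *Ffar1* made it 4 without 15.5 dpc replicate 1, where 4266 of all 15855 genes tested were called. At an adjusted p of 0.1 the number of receptors called higher was 3, and the share of all genes was not counted there. It was 1 under the study's thresholds, which leave out *Vipr1* for its level and called 10.4% of protein-coding genes. The number called lower was 0 throughout. A minimum of 10 counts in every sample left no value for *Cckbr*, *Chrm3*, *Sctr* and *Ffar1*.

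The sign for *Gast* reversed with upper quartile factors (-0.0038), total counts alone (-0.19), the length trend removed (-0.36) and without 13.5 dpc replicate 1 (-0.0013) or 15.5 dpc replicate 1 (-0.15), with a range of -0.15 to 0.20 over samples left out. That for *Gip* reversed with total counts alone (-0.034), the length trend removed (-0.16) and without 15.5 dpc replicate 1 (-0.155), with a range of -0.155 to 0.38. The cause was not tested. Of 519 alternative values over 35 named genes, 480 kept direction and call, 23 lost the call, 8 gained it and 8 reversed. Genes called lower numbered 7 for Gs signalling with total counts alone and 8 without 15.5 dpc replicate 2, against 3. For Gq signalling, 5 were called higher with the length trend removed, against 1, and 3 higher and 6 lower without 15.5 dpc replicate 2. For trafficking and processing genes, 4 were called lower without 15.5 dpc replicate 2, against 0, and for related receptors 2 with the replicate block, against 4. Over all genes, 3467 of 15578 were called, 4085 with total counts alone and 5104 with the length trend removed. With a sample left out, 1235 to 7620 were called. The lowest number was without 13.5 dpc replicate 1, out of 15771 tested, and the highest without 15.5 dpc replicate 2, out of 15862 tested.

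Same-numbered samples did not deviate together (correlations 0.22, -0.22 and 0.04), so the numbers were not read as pairs. With the replicate block 2 receptors were called higher and 0 lower, and 2676 genes overall. Few counts limit *Glp1r*, *Sctr*, *Ffar1*, *Cckbr* and *Chrm3*.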
